A study of Mus musculus with 20 samples.

Results

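The Hedgehog pathway genes described here were the 8 named genes Shh, Ihh, Ptch1, Smo, Gli1, Gli2, Gli3 and Hhip, found by symbol among the 43472 genes of the count table. All 8 passed the filter on low counts, among 15261 genes tested. They were measured by RNA sequencing of mouse ventral prostate in 20 libraries, 5 in each of 4 groups. Every male had been orchidectomised, that is, its testes had been removed, so no group holds an intact male. The groups were wild type (WT, C57BL/6J) given vehicle, WT given testosterone, ARNoC/Y given vehicle and ARNoC/Y given testosterone, each for 4 days. The labels name the ARNoC allele without describing it, and give no age or dose. They do not say whether each library is 1 animal, so the error given is the spread over libraries, which may be technical in part.

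Hedgehog ligands are secreted proteins that bind Patched on a receiving cell and lift its block on Smoothened, which works in the primary cilium and shifts the Gli transcription factors from repressor to activator forms. Ptch1, Gli1 and Hhip are themselves classical target genes of the active pathway, and the products of Ptch1 and Hhip hold the ligand back. In the developing prostate the ligand comes from the epithelium of the buds and the response lies in the surrounding mesenchyme.

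The members parted in direction after testosterone. The mean of both genotypes was a comparison added after the values were seen. In it Hhip rose, while Ptch1, Smo, Ihh, Gli2 and, at the edge of the threshold, Gli1 fell. Of all tested genes 26.3% rose and 25.9% fell there. Shh and Gli3 did not pass the test. Between the genotypes 0 of the 8 members passed the test with either treatment, beside 0.321% of all tested genes with vehicle and 1.69% with testosterone. Hhip, Ptch1 and Smo were called in both WT and ARNoC, Hhip in WT only at the edge of the threshold (adjusted p 0.0465), and the DNA before their start sites is shown here first.

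The 250 bases that precede the start site were taken from RefSeq (GRCm38.p6), whose table matched 6 of the 8 members, not Shh and Gli1. Each is written 5′ to 3′ on the strand of its gene, and capitals mark GC boxes (GGGCGG, or CCGCCC on the other strand). Hhip lies on chr8:80058009-80058258 of the minus strand, Ptch1 on chr13:63565736-63565985 of the minus strand and Smo on chr6:29735247-29735496 of the plus strand. The RefSeq start of Ptch1 lies inside the longer gene that the GENCODE M21 annotation gives.
Hhip: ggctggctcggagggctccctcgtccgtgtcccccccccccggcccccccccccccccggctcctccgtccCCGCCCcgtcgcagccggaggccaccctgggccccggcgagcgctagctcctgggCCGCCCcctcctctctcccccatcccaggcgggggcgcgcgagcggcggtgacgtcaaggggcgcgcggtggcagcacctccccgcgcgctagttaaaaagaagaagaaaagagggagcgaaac
Ptch1: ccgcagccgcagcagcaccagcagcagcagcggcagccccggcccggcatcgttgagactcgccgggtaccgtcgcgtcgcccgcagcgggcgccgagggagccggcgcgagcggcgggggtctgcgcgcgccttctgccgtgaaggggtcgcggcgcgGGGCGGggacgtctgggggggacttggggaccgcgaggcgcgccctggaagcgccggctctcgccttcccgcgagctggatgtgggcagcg
Smo: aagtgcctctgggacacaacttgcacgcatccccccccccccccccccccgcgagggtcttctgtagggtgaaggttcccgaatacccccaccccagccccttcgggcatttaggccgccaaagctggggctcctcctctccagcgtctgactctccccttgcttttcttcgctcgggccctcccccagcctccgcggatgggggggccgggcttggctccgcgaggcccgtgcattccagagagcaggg
The Hhip window held 2 GC boxes and the Ptch1 window 1, while the Smo window held 0. GC boxes were found in 32.7% of the 32851 promoter windows of the table. The 3 windows were rich in G and C, at 76% for Hhip, 78.4% for Ptch1 and 68.4% for Smo, against a median of 52.4% over all windows. The Gli binding letters GACCACCCA, which 0.225% of all windows hold on either strand, were found in 0 of the 6 member windows. Their shorter core CCACCCA (8.11% of all windows) and the androgen receptor half-site AGAACA (16.1%), each searched on both strands, were also found in 0 of the 6. The core lies within the longer Gli site, so these counts overlap. The remaining windows held 2 GC boxes for Ihh, 1 for Gli2 and 2 for Gli3.

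The libraries held 8861646 to 21600352 counts each. Levels are normalized counts (reads over a library's DESeq2 size factor), as mean ± SD with n = 5 per group. The tissue label was checked against markers. The luminal secretory genes Sbp and Spink3 and the luminal keratin Krt18 were the 3 highest luminal markers, and Sbp held at least 300807 normalized counts in every library. Markers of the neighbouring seminal vesicle summed to at most 50.7 normalized counts in any library, with Svs3a at 0 in all 20. Smooth muscle, fibroblast, adipocyte and skeletal muscle markers were present in differing amounts, and 2 libraries (WT testosterone library 5 and ARNoC vehicle library 5) stood apart by the uroplakin gene Upk3a. In bulk tissue, fewer cells of a type and less RNA per cell cannot be told apart.

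To compare the members with each other, each level was divided by the length of the gene's merged exons. Smo, the signal transducer, stood highest on this per-kilobase scale, at 128 ± 11.7 normalized counts per kb in WT with vehicle. Ptch1, the main receptor, followed at 53.9 ± 5.91. The spread of these 2 did not touch. The next members lay far below, and neighbours in their order did not differ beyond their spread, with Shh at 9.15 ± 2.50, Gli3 at 6.50 ± 2.65, Gli1 at 6.34 ± 2.29, Hhip at 5.23 ± 2.80, Ihh at 5.15 ± 2.90 and Gli2 at 2.50 ± 1.68 normalized counts per kb. Smo and Ptch1 kept the first and the second place in all 4 groups. In ARNoC with testosterone Hhip came after them, at 13.0 ± 3.59 per kb, and Shh at 7.39 ± 1.90 overlapped in its spread with Gli3 at 5.37 ± 1.21 and Gli1 at 4.88 ± 1.71.

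**Figure D1:**
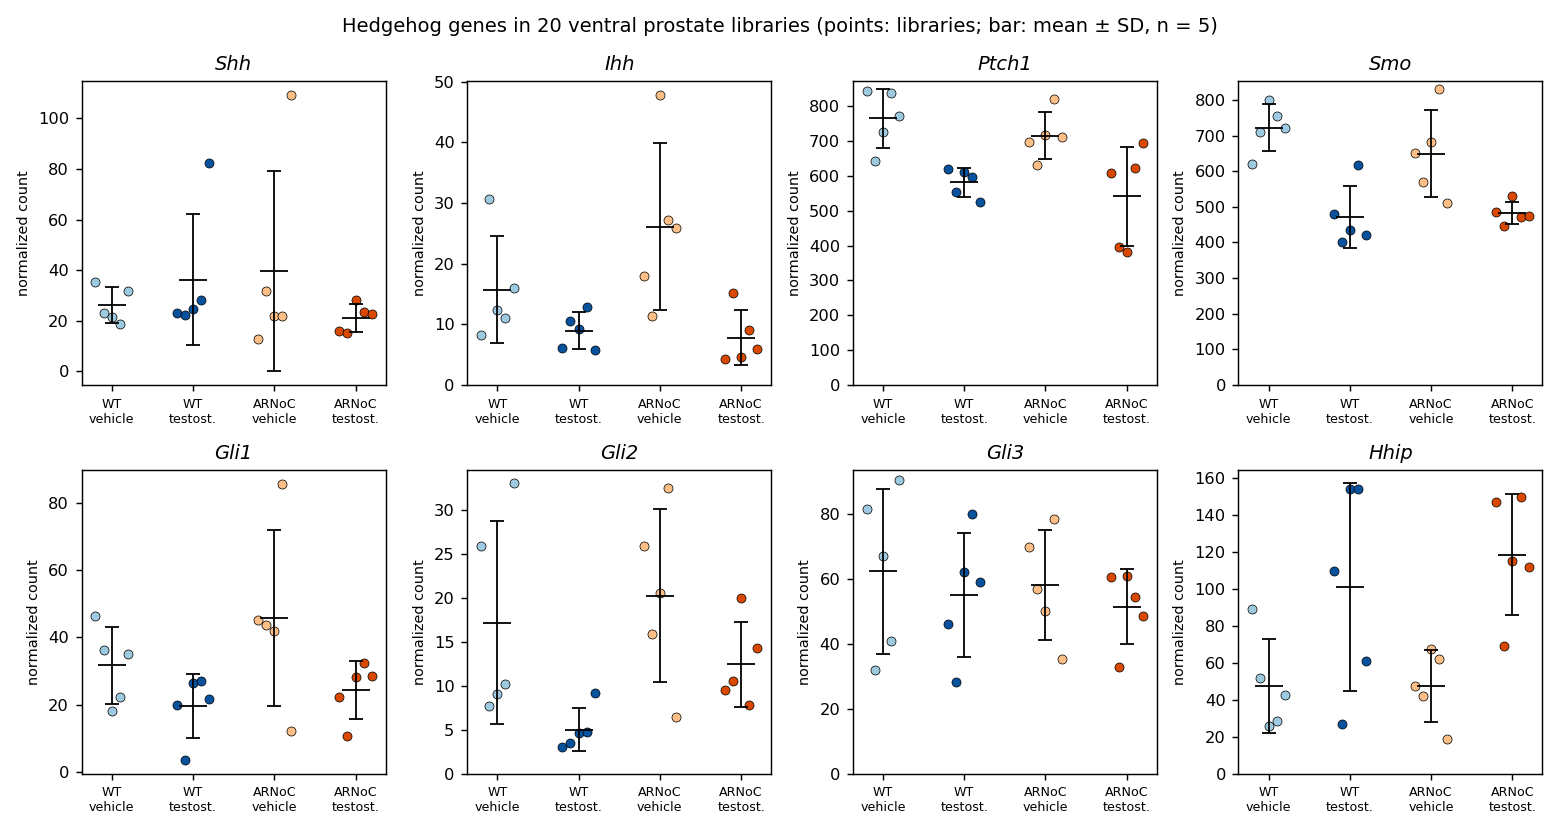
Normalized counts (linear axes, a separate scale for each gene) of the 8 members in each library, by genotype and treatment. Points are libraries and the bar is the mean ± SD of 5. Shh stands at 82.4 in 1 WT testosterone library and at 109 in 1 ARNoC vehicle library, and in WT the Smo and Ptch1 points of the treated group lie below all vehicle points.

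The ligands were low and behaved differently from each other. Sonic hedgehog (Shh, chromosome 5: 28456815 to 28467256 in mm10) is the ligand of prostate bud epithelium. In WT its normalized counts were 35.1, 23.0, 21.5, 18.5 and 32.0 with vehicle and 23.1, 22.4, 24.8, 28.2 and 82.4 with testosterone. In ARNoC they were 12.9, 31.7, 22.0, 22.0 and 109 with vehicle and 15.9, 15.2, 28.1, 23.4 and 22.6 with testosterone. A single library in each of 2 groups was high, all other 18 lay between 12.9 and 35.1, and the groups overlapped. The log2 difference of testosterone against vehicle was 0.52 (SE 0.49, edgeR adjusted p 0.424) in WT and -0.89 (SE 0.49, adjusted p 0.166) in ARNoC. Without both high libraries, the WT value was -0.0644 and the difference between the 2 responses went from -1.41 to 0.000741 on the log2 scale.

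The 2 libraries that were high for Shh were the 2 with more than traces of Upk3a, a uroplakin of the urothelial surface. Upk3a reached 243 normalized counts in WT testosterone library 5 and 194 in ARNoC vehicle library 5, against 0 to 2.13 in the other 18. Upk2, another uroplakin of the urothelial surface, stood at 213 and 198 against 3.20 to 21.4. Ly6d, a marker of proximal luminal and basal cells, stood at 565 and 594 against 12.8 to 132. Psca, a surface protein of urothelium and proximal prostate, stood at 627 and 468 against 0 to 261. Upk1a and Upk1b did not set these libraries apart: Upk1a held 3328 to 8786 normalized counts in the other 18. The basal keratin Krt5 was also highest in these 2, at 1299 and 1430 against 524 to 1107. The part of urothelial or proximal tissue in the Shh values was not tested.

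**Figure D2:**
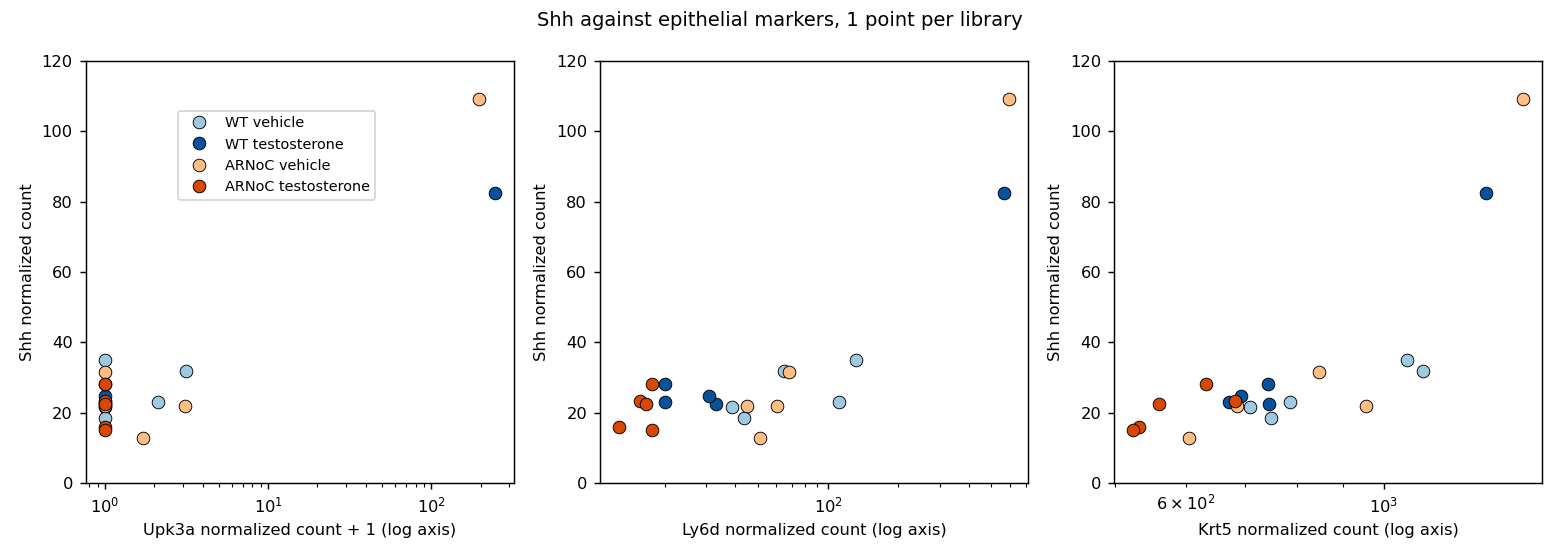
Shh normalized counts (linear axis) against the normalized counts of Upk3a (plus 1), Ly6d and Krt5 (log axes), 1 point per library coloured by group. The WT testosterone and the ARNoC vehicle library with Shh at 82.4 and 109 stand at the upper right of each panel, and the other 18 libraries lie at or below 35.1.

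Indian hedgehog (Ihh, chromosome 1: 74945315 to 74951672), the ligand best known from cartilage and gut, fell with testosterone in ARNoC. Its normalized counts there were 18.0, 11.4, 47.9, 27.2 and 25.9 with vehicle and 4.25, 15.2, 4.68, 8.998 and 5.93 with testosterone. Testosterone library 2 reached into the vehicle range, and the other 4 lay below it. The log2 difference was -1.71 (SE 0.43), a 3.26-fold lower level (adjusted p 0.00398). In WT the values were 8.26, 30.7, 12.4, 11.1 and 15.98 with vehicle and 6.16, 10.6, 9.31, 12.9 and 5.82 with testosterone, which overlapped. The WT difference of -0.79 (SE 0.45, adjusted p 0.172) did not pass the test, and the 2 responses were not shown to differ (interaction -0.92, 95% interval -2.22 to 0.39). All 5 libraries of a group held 37 to 160 reads of Ihh together, so its single values are coarse. Desert hedgehog (Dhh), the ligand of Sertoli and Schwann cells, averaged 2.60 to 4.02 normalized counts per group, below the filter.

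The receptor gene Ptch1 (chromosome 13: 63508328 to 63573598) fell by a like amount in both genotypes. In WT the vehicle libraries held 844, 643, 725, 838 and 771 normalized counts and the testosterone libraries 621, 554, 611, 597 and 524. The lowest vehicle library stood above the highest testosterone library. This was a log2 difference of -0.39 (SE 0.13), a 1.31-fold lower level (edgeR adjusted p 0.0265). Among all tested genes 11.9% were lower without overlap in this comparison.

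In ARNoC the Ptch1 values were 697, 631, 718, 819 and 711 with vehicle and 609, 397, 381, 623 and 693 with testosterone. Libraries 2 and 3 of the treated group were low, while library 5 lay within the vehicle range. The log2 difference was -0.40 (SE 0.13, adjusted p 0.0249). The difference between the responses was -0.01 (95% interval -0.40 to 0.39). Each Ptch1 call was near the threshold. The WT call ended without vehicle library 1 or 4 (adjusted p 0.0616 and 0.0626), and the ARNoC call without vehicle library 4 or testosterone library 2 or 3 (0.065, 0.0543 and 0.0504).

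Smo (chromosome 6: 29735503 to 29761365), which carries the signal from Patched to the Gli proteins, gave the smallest adjusted p of the members in WT. Its WT values were 621, 710, 799, 756 and 721 with vehicle and 480, 402, 436, 618 and 420 with testosterone. The groups did not overlap, although testosterone library 4 stood just below vehicle library 1. It amounted to a log2 difference of -0.61 (SE 0.12), a 1.52-fold lower level (adjusted p 0.000554). In ARNoC the values were 652, 571, 682, 831 and 511 with vehicle and 487, 446, 532, 471 and 475 with testosterone. Here vehicle library 5 was low and overlapped with the treated group. The difference was -0.42 (SE 0.12, 1.34-fold lower, adjusted p 0.0100), and the interaction was 0.19 (95% interval -0.17 to 0.55).

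The Gli genes encode the transcription factors of the pathway. Gli1 (chromosome 10: 127329882 to 127341974), an activator and the usual readout of the pathway, held 46.5, 36.2, 18.2, 22.2 and 35.1 normalized counts in WT with vehicle and 20.02, 3.54, 26.4, 27.0 and 21.6 with testosterone. In ARNoC it held 45.3, 43.7, 41.8, 85.8 and 12.04 with vehicle and 22.3, 10.5, 28.1, 32.4 and 28.5 with testosterone. Treated libraries were mostly lower, with overlap in both genotypes. The log2 differences of -0.67 (SE 0.46, adjusted p 0.264) and -0.88 (SE 0.44, adjusted p 0.128) did not pass the test. Without ARNoC vehicle library 5, which was lowest in Gli1 among the vehicle libraries, the ARNoC difference was -1.11 with an adjusted p of 0.0345.

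Gli2 (chromosome 1: 118834132 to 119053619), the main activator early in the response, fell in WT. Its values were 25.8, 7.68, 9.11, 10.2 and 33.0 with vehicle and 3.08, 3.54, 4.65, 4.70 and 9.15 with testosterone. Only treated library 5 reached into the vehicle range. The log2 difference was -1.66 (SE 0.50), a 3.16-fold lower level (adjusted p 0.0121), on 85 reads in the vehicle group and 23 in the treated group. In ARNoC the values were 25.9, 15.8, 20.5, 32.4 and 6.48 against 9.57, 10.5, 19.9, 7.80 and 14.2, and the difference of -0.71 (SE 0.44, adjusted p 0.222) did not pass. The interaction was 0.95 (95% interval -0.44 to 2.34), so the responses were not shown to differ. All 7 macrophage markers fell in WT (median log2 difference -2.06) and 6 fell in ARNoC (-1.12), beside 18.8% and 16.8% of all tested genes. Their summed normalized counts ranged from 1905 to 8894 in WT with vehicle, 840 to 1855 in WT with testosterone, 1495 to 5599 in ARNoC with vehicle and 1270 to 3000.3 in ARNoC with testosterone. Over the 20 libraries, after subtraction of group means, Gli2 had a Pearson r of 0.91 with the mean log2 level of the macrophage markers, 0.86 with the fibroblast and matrix markers and 0.82 with the endothelial markers. The genes most like Gli2 by the same measure, looked at after its values were seen, were Steap3, F13a1, Was, Ednrb and Cyth4 (0.93 to 0.94). F13a1, a clotting factor subunit made by tissue macrophages, and Was, a regulator of actin in blood cells, are known from cells of that lineage. No cell type was assigned to Steap3, Ednrb or Cyth4. The part of macrophage, fibroblast or endothelial RNA in the Gli2 values was not tested. Gli3 (chromosome 13: 15463235 to 15730026), mainly a repressor, ranged from 28.3 to 90.5 over all libraries. Its group means lay between 51.5 ± 11.6 and 62.4 ± 25.4, and its log2 differences were -0.17 (95% interval -0.79 to 0.46) in WT and -0.16 (-0.78 to 0.46) in ARNoC.

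Hhip (chromosome 8: 79965851 to 80058006), which encodes a membrane protein that binds and holds back Hedgehog ligands, was the 1 member that rose. In ARNoC its normalized counts were 47.4, 41.8, 67.6, 61.7 and 18.5 with vehicle and 147, 69.1, 115, 149 and 112 with testosterone. The groups did not overlap, although treated library 2 stood just above vehicle library 3. On the log2 scale this was 1.33 (SE 0.42), a 2.51-fold higher level (adjusted p 0.0174). Higher levels without overlap were found for 12.4% of all tested genes.

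In WT the Hhip values were 88.8, 51.6, 25.7, 28.7 and 42.6 with vehicle and 109, 27.1, 154, 154 and 60.7 with testosterone. Treated library 2 was as low as the lowest vehicle libraries, libraries 1, 3 and 4 stood above all vehicle libraries, and library 5 above all but vehicle library 1. The log2 difference was 1.10 (SE 0.42), a 2.14-fold higher level with an adjusted p of 0.0465. That call ended in 7 of 10 fits that left out 1 library, namely vehicle library 2, 3, 4 or 5 or testosterone library 1, 3 or 4, with values from 0.843 to 1.45 and adjusted p from 0.0133 to 0.147 over the 10. The responses of the genotypes were not shown to differ (interaction 0.23, 95% interval -1.0 to 1.47).

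**Figure D3:**
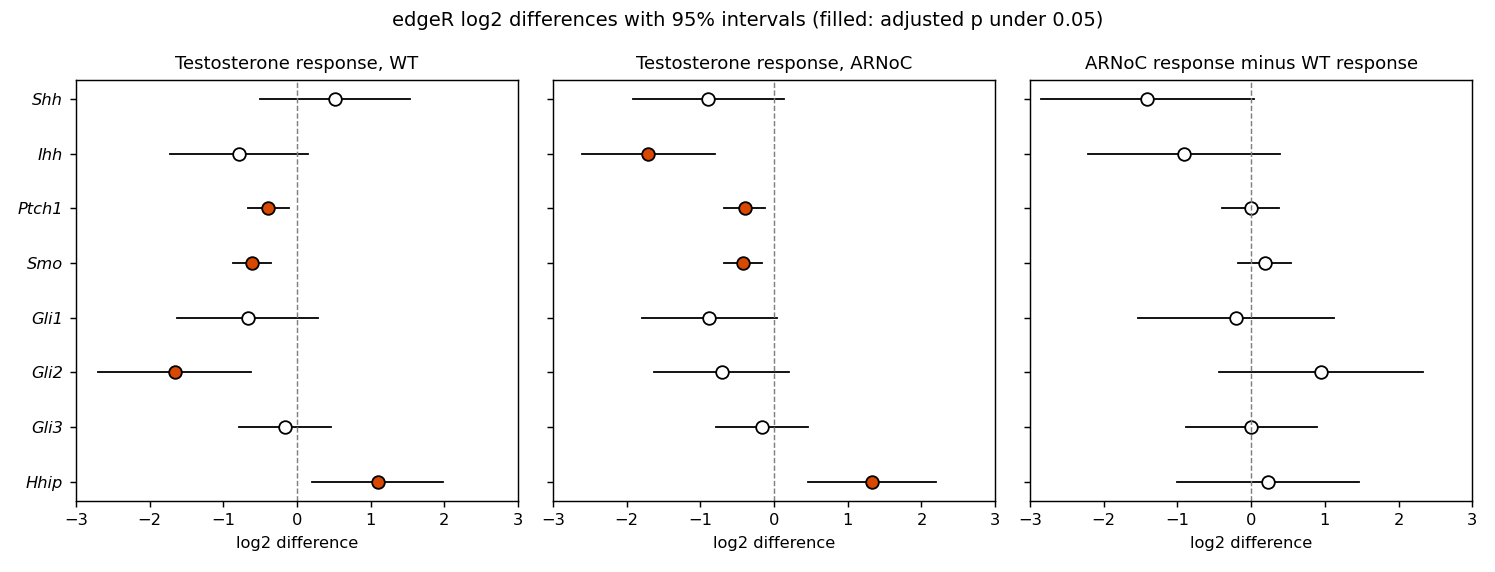
Log2 differences (horizontal axis) of the 8 members with 95% intervals, for testosterone against vehicle in WT, the same in ARNoC, and the ARNoC response minus the WT response. Filled points have an adjusted p under 0.05. Hhip stands to the right of 0 in both genotypes at 1.10 and 1.33, Ptch1 and Smo to the left, and all 8 intervals of the difference between responses reach across 0.

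Counted together, 1 member rose and 3 fell in WT, where 20.4% of all tested genes rose and 18.8% fell. In ARNoC 1 rose and 3 fell, against 19.4% and 16.8% of all genes. A share of 4 in 8 is near the 39.2% and 36.2% of all genes that were called in either direction, so the number of members called is not particular to them. The median log2 difference of the members was -0.50 in WT and -0.57 in ARNoC, beside -0.02 and -0.01 over all tested genes. The mean of both genotypes, a comparison added after the values were seen, gave 1 member higher and 5 lower, where 26.3% and 25.9% of all genes were called. There Hhip rose by 1.21 (adjusted p 0.00199), and Smo (-0.51, 4.87e-05), Ptch1 (-0.39, 0.00165), Ihh (-1.25, 0.00218), Gli2 (-1.19, 0.0054) and Gli1 (-0.77, 0.0475) were lower on the log2 scale. The Gli1 call ended in 11 of the 20 fits without 1 library (WT vehicle 1, 2 or 5, WT testosterone 1 or 2, ARNoC vehicle 1 to 4, ARNoC testosterone 1 or 2), at adjusted p up to 0.109.

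With vehicle, edgeR called 0 of 8 members between ARNoC and WT, beside 0.321% of all tested genes. At an unadjusted p under 0.05 the count was also 0, and DESeq2 and limma-voom called 0. The widest departure was Ihh at 0.74 (95% interval -0.11 to 1.58), and the narrowest interval was that of Smo at -0.15 (-0.40 to 0.10). With testosterone 0 of 8 were called by edgeR, DESeq2 and limma-voom, beside 1.69% of all genes, and 1 member, Gli2, had an unadjusted p under 0.05. Gli2 averaged 12.4 ± 4.81 in ARNoC and 5.02 ± 2.41 in WT (log2 difference 1.20, 95% interval 0.13 to 2.27, adjusted p 0.277). The interaction called 0 of 8 members by edgeR and limma-voom, 0 at an unadjusted edgeR p under 0.05, and 0 of the 6 for which DESeq2 gave an adjusted p (not Ihh and Gli2). Over all genes edgeR called 0% in the interaction, with 1306 at an unadjusted p under 0.05, and DESeq2 called 12 higher and 17 lower.

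Hhip and Gli1 are both classical targets of the pathway, and across libraries of the same group they went up and down together. After the mean of each group was subtracted, their log2 levels had a Pearson r of 0.883 (permutation p 4e-05, adjusted 4e-05) and a Spearman rho of 0.761 (permutation p 0.00035, adjusted 0.00035) over 20 libraries, and r was 0.761 without the 2 libraries farthest from the median of Gli1. Libraries were permuted within groups, and 3 relations were tested. An r was also computed for every pair of members and for each member with each marker list. That of Gli1 and Hhip was the highest of the pairs, and each had its highest r with the smooth muscle markers. The adjustment covers the 3 relations alone and does not account for this. Both also followed the smooth muscle score, the mean log2 level of 12 smooth muscle markers. For Hhip r was 0.841 (permutation p 2e-05, adjusted 3e-05) and rho 0.824 (permutation p 9e-05, adjusted 0.00027), and for Gli1 r was 0.832 (permutation p 2e-05, adjusted 3e-05) and rho 0.758 (permutation p 0.00019, adjusted 0.000285). Without the 2 libraries of the most distant smooth muscle score, r was 0.858 and 0.783. The smooth muscle markers were not alone in this. As a description, Gli1 had an r of 0.80 with the nerve and Schwann markers, 0.78 with the endothelial and 0.77 with the fibroblast and matrix markers, and Hhip of 0.68, 0.58 and 0.54 in the same order.

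By treatment the same 2 genes went apart, which the ratio of Hhip to Gli1 within each library shows. This ratio was chosen after the values were seen, and so describes these libraries. In WT the log2 ratio was 0.92, 0.50, 0.47, 0.36 and 0.27 with vehicle and 2.39, 2.63, 2.50, 2.47 and 1.45 with testosterone. In ARNoC it was 0.07, -0.06, 0.68, -0.47 and 0.58 with vehicle and 2.66, 2.60, 1.99, 2.17 and 1.93 with testosterone. Every treated library stood above every vehicle library of its genotype. The differences were 1.78 and 2.11, each with an exact two-sided permutation p of 0.00794, the smallest that 5 against 5 libraries can give, and 0.0159 after adjustment over 4 comparisons. Neither p-value accounts for the choice of this ratio. In WT testosterone library 2 the ratio of 2.63 rests on 3 reads of Gli1. Between genotypes the ratio differed by -0.34 with vehicle (exact permutation p 0.198, adjusted 0.265) and by -0.01 with testosterone (0.968 for both), in each case with overlap.

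**Figure D4:**
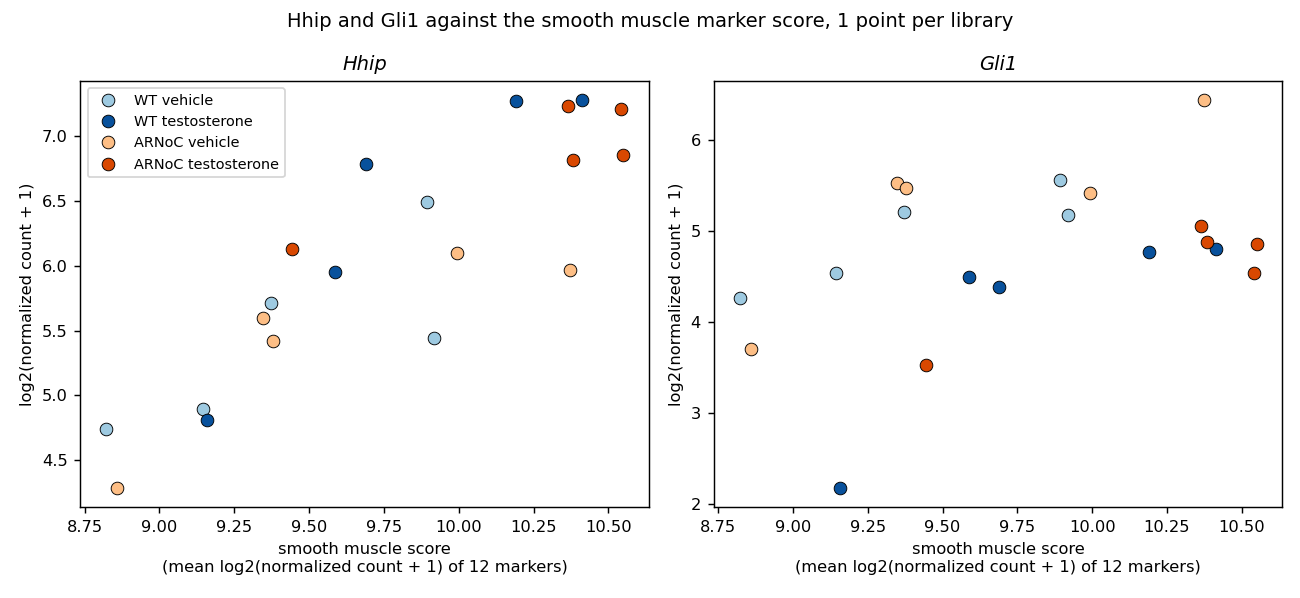
Hhip (left) and Gli1 (right) as log2 of the normalized count plus 1 against the smooth muscle score, the mean log2 level of 12 markers, 1 point per library coloured by group. Both genes stand higher in libraries with a higher score, the highest Hhip points are treated libraries, and the Gli1 points of treated libraries lie below vehicle libraries of a like score.

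Stromal markers give the background of the Gli genes and Hhip, and in each genotype most of them did not pass the test. Of 12 smooth muscle markers 1 rose in WT and 5 in ARNoC, with 0 lower and median log2 differences of 0.49 and 0.67, where 20.4% and 19.4% of all tested genes rose. Their summed normalized counts ranged from 12428 to 25419 in WT with vehicle, 13119 to 44004 in WT with testosterone, 12698 to 37779 in ARNoC with vehicle and 21042 to 49071 in ARNoC with testosterone. Of 14 fibroblast and matrix markers 1 rose and 5 fell in WT (median -1.39), and 0 rose and 1 fell in ARNoC (median -0.74), where 18.8% and 16.8% of all tested genes fell. Their sums ranged from 19195 to 71833, 18912 to 40472, 8916 to 49278 and 13321 to 28242 in the same order of groups. In the mean of both genotypes, 5 of the 12 smooth muscle markers rose and 0 fell (median log2 difference 0.61). Of the 14 fibroblast and matrix markers 0 rose and 9 fell there (median -0.95), beside 26.3% of all tested genes that rose and 25.9% that fell. None of these 26 markers was at 0 in any library. With the stromal score of each library, the mean log2 level of these 26 markers, as a covariate, the Hhip difference was 1.42 in WT (adjusted p 0.00274) and 1.40 in ARNoC (0.00179), and that of Gli2 in WT was -1.03 (0.0189). With it the Ptch1 call in WT ended (-0.336, adjusted p 0.0558) and Gli1 in ARNoC was called (-0.739, 0.0375). This score joins smooth muscle markers, whose median rose, with fibroblast and matrix markers, whose median fell. It therefore does not adjust for smooth muscle alone, and the part of smooth muscle RNA in the Hhip rise was not tested.

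The genes most like Gli1, Ptch1 and Hhip were ranked by Pearson r of log2 levels over the 20 libraries after subtraction of group means. For Hhip they were Myh11 (0.94), the smooth muscle myosin heavy chain, then Mrvi1 (0.94), Pgm5 (0.93), Lgi3 (0.93) and P2rx1 (0.92). For Gli1 they were Thsd7a (0.95), Sulf1 (0.94), which encodes a heparan sulfatase, Tgfb1i1 (0.94), Brsk1 (0.94) and Reck (0.93). For Ptch1 they were Klhl24 (0.91), Il1rap (0.90), Tbc1d5 (0.87), Rora (0.87), which encodes a nuclear receptor, and Zfyve1 (0.86). No gene stood on more than 1 of these 3 lists. Each list holds only 5 of the 15261 tested genes, so this does not show that the members follow different genes. Shh, looked at after its values were seen, was most like Krt5 (0.92) and Ly6d (0.86).

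Beside the counts of this and the next 3 lists stand the shares of all tested genes. In WT 20.4% rose and 18.8% fell (39.2% in either direction), and in ARNoC 19.4% rose and 16.8% fell (36.2%). By edgeR the interaction called 0 genes of these lists, so no response below was shown to differ between the genotypes. Of 10 tested genes that process, release or bind the ligands, 1 rose and 1 fell in WT, and 0 rose and 1 fell in ARNoC. Scube2, which encodes a secreted helper of ligand release, went from 18.4 ± 8.47 to 40.5 ± 13.4 normalized counts in WT (2.21-fold higher, edgeR adjusted p 0.0226), and its ARNoC difference was 0.86 on the log2 scale (0.071). Disp1, which releases the lipid-bearing ligand from the sending cell, went from 70.3 ± 30.8 to 30.8 ± 8.96 in WT (2.24-fold lower, adjusted p 0.00714). Its ARNoC difference was -0.24 on the log2 scale (0.578). Cdon, which encodes a co-receptor, went from 1031 ± 187 to 771 ± 117 in ARNoC (1.33-fold lower, adjusted p 0.0183). Its WT difference was -0.20 on the log2 scale (0.238). The median log2 difference of the list was -0.38 in WT and -0.28 in ARNoC.

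Of 24 tested genes that regulate Smoothened and the Gli proteins, 3 rose and 4 fell in each genotype. Spop, which encodes an adaptor that marks Gli2 and Gli3 for degradation, fell in both. It went from 5007 ± 315 to 3354 ± 211 normalized counts in WT (1.48-fold lower, adjusted p 1.17e-06) and from 4446 ± 378 to 3351 ± 181 in ARNoC (1.32-fold lower, 7.88e-05). Kif7, a kinesin of the cilium tip that holds Gli proteins, went from 25.5 ± 5.62 to 11.1 ± 5.70 in WT (adjusted p 0.0102). Evc2, which encodes a partner of Smoothened at the cilium base, went from 97.4 ± 19.2 to 57.8 ± 8.16 in WT (0.00785). Adrbk1, the gene of a kinase that acts on Smoothened, rose 1.14-fold in WT (0.00402). The ARNoC log2 differences of Kif7, Evc2 and Adrbk1 were -0.37, -0.32 and 0.10 (adjusted p 0.411, 0.236 and 0.114). In ARNoC, Spopl, a relative of Spop, rose 1.33-fold (0.00651), and Iqce and Btrc fell by 1.27-fold and 1.16-fold (0.00378 and 0.0227). The WT log2 differences of Spopl, Iqce and Btrc were 0.16, -0.05 and 0.10 (adjusted p 0.283, 0.663 and 0.27). Btrc, part of the ligase that processes Gli3, was also called between genotypes with testosterone, at 648 ± 49.7 in ARNoC and 826 ± 80.4 in WT (adjusted p 0.0129). The median of the list was -0.11 in WT and -0.12 in ARNoC.

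The primary cilium is where Smoothened meets the Gli proteins. Of 30 tested genes of this list 3 rose and 12 fell in WT, and 2 rose and 15 fell in ARNoC, with medians of -0.20 and -0.27. Among all tested genes 20.4% rose and 18.8% fell in WT, and 19.4% rose and 16.8% fell in ARNoC. Kifap3, a subunit of the motor that carries cargo into the cilium, went from 807 ± 48.8 to 435 ± 39.6 normalized counts in WT (1.85-fold lower, adjusted p 3.94e-09) and from 773 ± 49.8 to 377 ± 8.59 in ARNoC (2.04-fold lower, 4.54e-10). Dync2li1, of the motor for the return path, fell 1.80-fold in WT (2.75e-05) and 1.75-fold in ARNoC (4.98e-05). Ift80, of the transport particles, fell 1.42-fold in WT (0.000723) and 1.62-fold in ARNoC (3.02e-05). Ift81, of the same particles, fell 1.42-fold in WT (0.000147) and 1.49-fold in ARNoC (3.15e-05). Tulp3, which brings receptors into the cilium, rose, from 343 ± 28.8 to 664 ± 69.7 in WT (2.39e-08) and from 371 ± 21.1 to 776 ± 64.9 in ARNoC (4.91e-09). Ift20, which also serves at the Golgi, rose 1.57-fold in WT (8.04e-05) and 1.39-fold in ARNoC (0.00166).

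Of 15 other genes known as Gli targets in some tissues, 1 rose and 2 fell in WT, and 1 rose and 1 fell in ARNoC, with medians of -0.36 and -0.27. Ccnd1, which encodes cyclin D1, rose from 604 ± 68.7 to 1036 ± 193 normalized counts in WT (adjusted p 0.000782) and from 611 ± 194 to 852 ± 119 in ARNoC (0.023). Spp1, which encodes osteopontin and is made by macrophages among other cells, went from 623 ± 714 to 21.8 ± 11.9 in WT (adjusted p 0.000737). Its ARNoC difference was -1.73 on the log2 scale (adjusted p 0.143). Macrophage markers fell in both genotypes, and the part of macrophage RNA in the Spp1 values was not tested. Snai2, a mesenchymal transcription factor, fell 1.64-fold in WT (0.0262), and Tbx3 fell 1.29-fold in ARNoC (0.00562). The log2 difference of Snai2 in ARNoC was -0.50 (adjusted p 0.111), and that of Tbx3 in WT was 0.02 (0.865).

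The scaling bears on all of these directions. Luminal markers summed to 357323 to 704418 normalized counts in the vehicle libraries and 1643065 to 3362801 in the testosterone libraries. Scaling by total counts in place of TMM shifted the all-gene median log2 difference, by -0.42 for WT and -0.35 for ARNoC. Under it Hhip stood at 0.693 in WT (adjusted p 0.17) and 0.976 in ARNoC (0.0624), so both its calls ended, while its direction was the same. A change of scaling moves all genes by nearly the same amount, so the distance of Hhip from the median stays alike by construction. Over all genes 3114 rose and 2871 fell in WT by TMM, against 1099 and 9120 by total counts, and 2962 and 2565 in ARNoC, against 1178 and 7548.

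Some members share exon bases with other genes, and the strand setting of the counting is not given in the sources used here, so reads there cannot be assigned to 1 gene. In GENCODE M21, Shh exons share 446 bases with the antisense gene 9530036O11Rik and 361 with Gm26894. Gli1 exons share 62 bases with Arhgap9 and 265 with Gm47200, Gli3 188 with Gm6556 and Hhip 175 with Gm27820. The exons of Ihh, Ptch1, Smo and Gli2 shared 0 bases with another gene.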

How the data were processed

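The deposited count table holds whole-number reads per gene symbol for 43472 genes. Per the submitters' processing notes, the tools were FastQC 0.11.7, HISAT2, SAMtools 1.5, HTSeq and DESeq2, with the mouse build mm10. The notes give no roles or strand setting. The authors' signal values are their deposited normalized counts (reads over the library's size factor) for 23221 genes. The deposited ratio values are those size factors. The product of both was whole within 1e-06 for 100% of values. All sample columns were matched to labels, with 0 left over.

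A gene was tested if 5 or more of the 20 libraries held 10 or more normalized counts (15261 genes). The fit used edgeR 4.0.16 in R 4.3.3 with TMM scaling (trimmed means of M-values), 1 mean per group, the quasi-likelihood F-test and Benjamini-Hochberg adjustment at 0.05 over all tested genes. SEs are the log2 difference over the square root of F. The comparisons were testosterone against vehicle in each genotype, ARNoC against WT with each treatment, and the interaction, plus the mean of both genotypes, added after the values were seen. edgeR's common biological coefficient of variation came to 0.214. The code was tested on simulated data.

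The members and gene lists were chosen with earlier results of these data known. Besides the members and Dhh, the text names up to 4 called genes per pathway list and comparison by smallest adjusted p, the 3 highest markers for the tissue check and the 5 genes most like Gli1, Ptch1 and Hhip. A further gene named by this rule is not reported here. Upk1a, Upk1b, Upk2, Upk3a, Ly6d, Psca and Krt5 beside Shh, and the ratio of Hhip to Gli1, were chosen after their values were seen. The ratio is of log2(normalized count + 1). Alternatives were other scalings, no filter, DESeq2 1.42.0, limma-voom (limma 3.58.1), the compared groups alone, a stromal covariate and left-out libraries. Lengths, coordinates and shared exons come from GENCODE M21 (the same build). Library numbers follow accession order and pair nothing.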

Additional observations from a re-analysis of the deposited data

Results flagged for a closer look

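Each member was examined in each of the 4 groups for a library far from the other 4. Of these 32 sets of 5 values, 3 held one, where chance alone gives about 1 in 20. Shh in WT testosterone library 5 stood at 82.4 normalized counts, against 22.4 to 28.2 in the others of its group. Shh in ARNoC vehicle library 5 stood at 109, against 12.9 to 31.7. These are the 2 libraries that held Upk3a. Gli2 in WT testosterone library 5 stood at 9.15, against 3.08 to 4.70.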

How the results depend on the processing

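The labels give no replicate numbers. No paired analysis was possible because the labels give no pairing between the groups. The directions below are log2 differences, and the cause of each change was not tested.

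In WT the count of members that rose went from 1 to 0 under total-count scaling, no filter on low counts, limma-voom and the compared groups alone, and was 0 to 1 without 1 library. That member is Hhip, at 0.693, 1.04, 0.931 and 1.08 (adjusted p 0.17, 0.074, 0.13 and 0.0915). In ARNoC total-count scaling gave 0 higher and 5 lower, and leaving out 1 library gave 1 higher and 2 to 4 lower. The count that fell in WT was 2 to 3 without 1 library. Gli2 in WT was not called by limma-voom (-1.39), Ptch1 in ARNoC with the compared groups alone (-0.433), and Ptch1 in WT without both Upk3a libraries (-0.351), while Gli1 in ARNoC was called under total-count scaling (-1.23) and without both Upk3a libraries (-1.11) or both stroma-poor vehicle libraries (WT 2 and ARNoC 5, -1.11). Total-count scaling also called Ihh in WT (-1.21), Shh in ARNoC (-1.19) and, over both genotypes, Gli3 (-0.543). Smo in both genotypes, Ihh in ARNoC and Gli2 over both genotypes were called in every fit that gave them a value. DESeq2 gave no adjusted p for 2 of the 48 member results, the interactions of Ihh and Gli2.

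Signs turned for values that had not passed the test. Without both Upk3a libraries Shh stood at -0.0644 (response in WT), -0.221 (genotypes with vehicle) and 0.000741 (interaction), Gli3 at 0.0338 (vehicle) and -0.0995 (interaction), Hhip at -0.108 (interaction) and Smo at -0.004 (genotypes with testosterone). With the stromal covariate Gli3 stood at 0.157 (WT), 0.00646 (both genotypes) and -0.302 (interaction), Hhip at -0.0396 (vehicle), -0.0606 (testosterone) and -0.021 (interaction), Smo at -0.0436 and Gli1 at -0.102 (testosterone). Without both stroma-poor libraries Shh stood at -0.256 (vehicle) and 0.21 (both genotypes), and the interaction of Ptch1 at 0.0474 and of Hhip at -0.000788. The interaction of Ptch1 was 0.0695 under total counts and that of Gli1 0.124 under limma-voom, where Shh over both genotypes was 0.00928. The Gli1 value over both genotypes was -0.75 there and not called.

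Without 1 library, the interaction ranged from -0.482 to 0.128 for Gli1, -0.164 to 0.179 for Gli3, -0.118 to 0.443 for Hhip and -0.111 to 0.0952 for Ptch1. The genotype difference ranged from -0.259 to 0.0709 for Gli3, -0.156 to 0.362 for Hhip and -0.221 to 0.836 for Shh with vehicle, and from -0.26 to 0.0761 for Gli3 and -0.0174 to 0.146 for Smo with testosterone. The response in WT ranged from -0.384 to 0.00235 for Gli3 and -0.103 to 0.643 for Shh, and Shh over both genotypes from -0.51 to 0.227. The ratio of Hhip to Gli1 between genotypes with testosterone ranged from -0.225 to 0.0711, and was 0.0741 with a pseudocount of 5. Over all genes, calls between genotypes ranged from 8 to 71 higher and 11 to 66 lower with vehicle (26 and 23 reported) and from 56 to 336 and 94 to 298 with testosterone (104 and 154), and DESeq2 called 12 and 17 in the interaction.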
